A study of Mus musculus with 36 samples.

Results

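The genes described here were 10 markers of tubular injury and of the acute phase response, chosen by symbol from the 53379 genes counted in both tables of the series: Havcr1, Lcn2, Spp1, Clu, Vcam1, Sox9, Serpina3n, C3, C7 and Cp. They were measured in mice that model translocation renal cell carcinoma, with the non-transformed kidneys of the fusion mice set against kidneys of control mice and against the tumors. The main question was whether kidney tissue that carries the fusion allele but was labelled normal differs in these genes from kidneys of mice without the fusion. RNA came from formalin-fixed, paraffin-embedded tissue. Sglt2-Cre; ASPSCR1-TFE3 LSL/+ mice carry a fusion allele behind a stop cassette, which Cre from the Sglt2 promoter, active in proximal tubule cells, removes. The 6 mice of this genotype gave 11 kidney tumor libraries (all 6 mice), 4 retro-orbital tumor libraries (mice 2, 3, 5 and 6), 3 brain tumor libraries (mice 1, 2 and 4) and 4 non-transformed kidney libraries (mice 1, 3, 4 and 5). Their controls were 3 mice with Sglt2-Cre and no fusion allele, with 2 kidney libraries each, so that Cre was present in every adult sample. Dysmorphic kidneys came from 5 fetuses with Pax8-Cre; ASPSCR1-TFE3 LSL/+, in which the promoter is active across the developing nephron. The 3 control fetal kidneys carry the label Pax8-Cre, whereas the design text of the series also allows the fusion allele without Cre for them. The labels used here give no age for the adult mice, and the non-transformed kidneys were taken from mice that bore tumors.

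Havcr1 encodes KIM-1, a phosphatidylserine receptor that injured proximal tubule cells place on their surface to take up dying neighbours. Lcn2 encodes NGAL, a siderophore-binding protein of the acute phase that the injured nephron releases into urine. Spp1 (osteopontin, a secreted integrin ligand), Clu (clusterin, a secreted chaperone), Vcam1 (an adhesion molecule for leukocytes carrying integrin alpha 4) and Sox9 (a transcription factor of regenerating tubule cells) are all known from tubules under repair, and Vcam1 in particular from proximal tubule cells that fail to recover. Serpina3n (an inhibitor of serine proteases), C3 (the hub of the complement cascade), C7 (a subunit of the membrane attack complex) and Cp (ceruloplasmin, a copper-carrying ferroxidase) belong to the acute phase and complement systems, which are driven mainly in liver by IL-6, STAT3, C/EBP and NF-kB but are also transcribed in kidney.

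In build GRCm38 the genes lie apart from each other. Havcr1 is at chr11:46735080-46779578 (plus strand), Lcn2 at chr2:32384633-32388252 (minus), Spp1 at chr5:104435118-104441050 (plus), Clu at chr14:65968483-65981547 (plus) and Vcam1 at chr3:116109949-116129688 (minus). Sox9 is at chr11:112782224-112787760 (plus), Serpina3n at chr12:104406729-104414329 (plus), C3 at chr17:57203970-57228136 (minus), C7 at chr15:4988762-5063740 (minus) and Cp at chr3:19957054-20009145 (plus). Hps3, on the opposite strand at chr3:19995945-20035315, overlaps Cp. Since the strand setting of the counting is not given in the sources used here, reads of Hps3 and Cp may not be fully separated.

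Promoters of the 3 genes that stood highest in non-transformed kidneys relative to their controls are shown first, because these members were higher together there. RefSeq (GRCm38.p6) gave promoter windows for 7 of the 10 genes, 11 windows in all. The 250 bases before the annotated start are printed 5′ to 3′ on the gene's strand, and capitals mark motif matches.
Serpina3n, chr12:104406458-104406707, plus strand: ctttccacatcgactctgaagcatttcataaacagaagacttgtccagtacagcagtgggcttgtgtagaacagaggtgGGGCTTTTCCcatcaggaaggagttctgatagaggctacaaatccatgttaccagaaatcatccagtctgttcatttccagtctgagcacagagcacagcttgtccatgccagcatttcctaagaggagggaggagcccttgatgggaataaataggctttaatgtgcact
Lcn2, chr2:32387740-32387989, minus strand: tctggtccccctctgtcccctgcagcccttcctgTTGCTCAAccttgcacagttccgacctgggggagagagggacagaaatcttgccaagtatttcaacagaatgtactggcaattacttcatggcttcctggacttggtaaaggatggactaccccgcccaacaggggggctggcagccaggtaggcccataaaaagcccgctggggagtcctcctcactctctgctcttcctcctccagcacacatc
C7, chr15:5063774-5064023, minus strand: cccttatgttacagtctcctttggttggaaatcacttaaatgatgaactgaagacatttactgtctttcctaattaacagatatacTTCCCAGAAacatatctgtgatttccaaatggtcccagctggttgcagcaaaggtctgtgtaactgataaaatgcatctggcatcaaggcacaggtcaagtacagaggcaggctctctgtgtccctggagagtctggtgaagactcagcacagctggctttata
Motifs were searched on both strands of windows that run from 250 bases before to 50 bases after each start. The NF-kB-type motif (GGG, any 2 bases and TTTCC) began at position -171 of Serpina3n and is held by 1.63% of the 32851 mouse promoters in the table. The C/EBP-type motif TTGCNNAA, held by 10.8% of promoters, began at -216 of Lcn2 and was also present in windows of Havcr1, Spp1, C3 and Cp. C7 held the STAT3-type motif TTCNNNGAA at -164, as did 8.3% of promoters. Among the E-box sequences bound by TFE3-type factors, CACGTG (7.15% of promoters) was in none of the 11 windows and CATGTG (14.2%) was in that of Lcn2, at position 37 after the start. No motif overlapped another, and a match describes letters in a window and not binding.

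Depth was high and similar, at 80205573 to 121415057 counts per library. Levels are given as CPM, the counts of a gene relative to the library total, after TMM scaling, which adjusts totals for differences in composition, and counts of the libraries of an animal were summed within a tissue. Differences are log2 fold changes from edgeR's quasi-likelihood test over all genes that passed its filter on low counts, and a gene is called at a Benjamini-Hochberg adjusted p below 0.05. All 10 genes passed the filter in all 6 comparisons. Y-linked transcripts showed that every control kidney was from a female, whereas non-transformed kidneys came from 2 males (mice 1 and 5) and 2 females (mice 3 and 4). Since these are bulk samples, fewer cells of a type and less RNA per cell cannot be told apart.

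Several libraries stood apart. The non-transformed kidney of mouse 5 held liver transcripts, with Ahsg at 15.9 CPM compared to 0.037 to 0.372 CPM in the other non-transformed kidneys, and with Tat, a liver aminotransferase, at 3.73 CPM where mice 1, 3 and 4 had 0 counts (a count of 0 allows up to 3 counts). The summed level of the 7 liver markers was nevertheless 44.9 to 135 CPM in non-transformed and 45.2 to 107 CPM in control kidney libraries. A kidney tumor library of mouse 4 held brain markers (summed level of 7 genes 105 CPM, median of all kidney tumor libraries 16.8 CPM), and the brain tumor of mouse 1 held few of them (31.8 CPM, compared to 1005 CPM for mouse 2 and 288 CPM for mouse 4). Among fetal kidneys, control fetuses 2 and 3 and dysmorphic fetus 5 held high levels of intestinal genes, which are given with the fetal results below. Pancreas and liver transcripts of fetal kidneys are given there as well.

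In non-transformed kidneys compared to control kidneys, Serpina3n, C7 and Lcn2 were higher and Havcr1 was lower in every fusion mouse than in every control mouse, but none of the 10 genes passed the adjusted threshold. With 3 control and 4 fusion mice, edgeR called 2 of 21019 genes (0.00952%) in this comparison, and 0 of the 10 members. By an unadjusted p below 0.05, 5 members were higher and 1 was lower, where 11.7% of all genes passed in either direction and 5.4% were higher, and DESeq2 called 4 members (Havcr1, Lcn2, Serpina3n and C7) and 2.37% of all genes. The mice of both groups did not overlap for 6 members, 5 higher (Lcn2, Sox9, Serpina3n, C7 and Cp) and 1 lower (Havcr1), whereas 11.4% of all genes did not overlap, 4.5% higher and 6.87% lower. The plot of levels by animal shows the members across all groups.

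**Figure D1:**
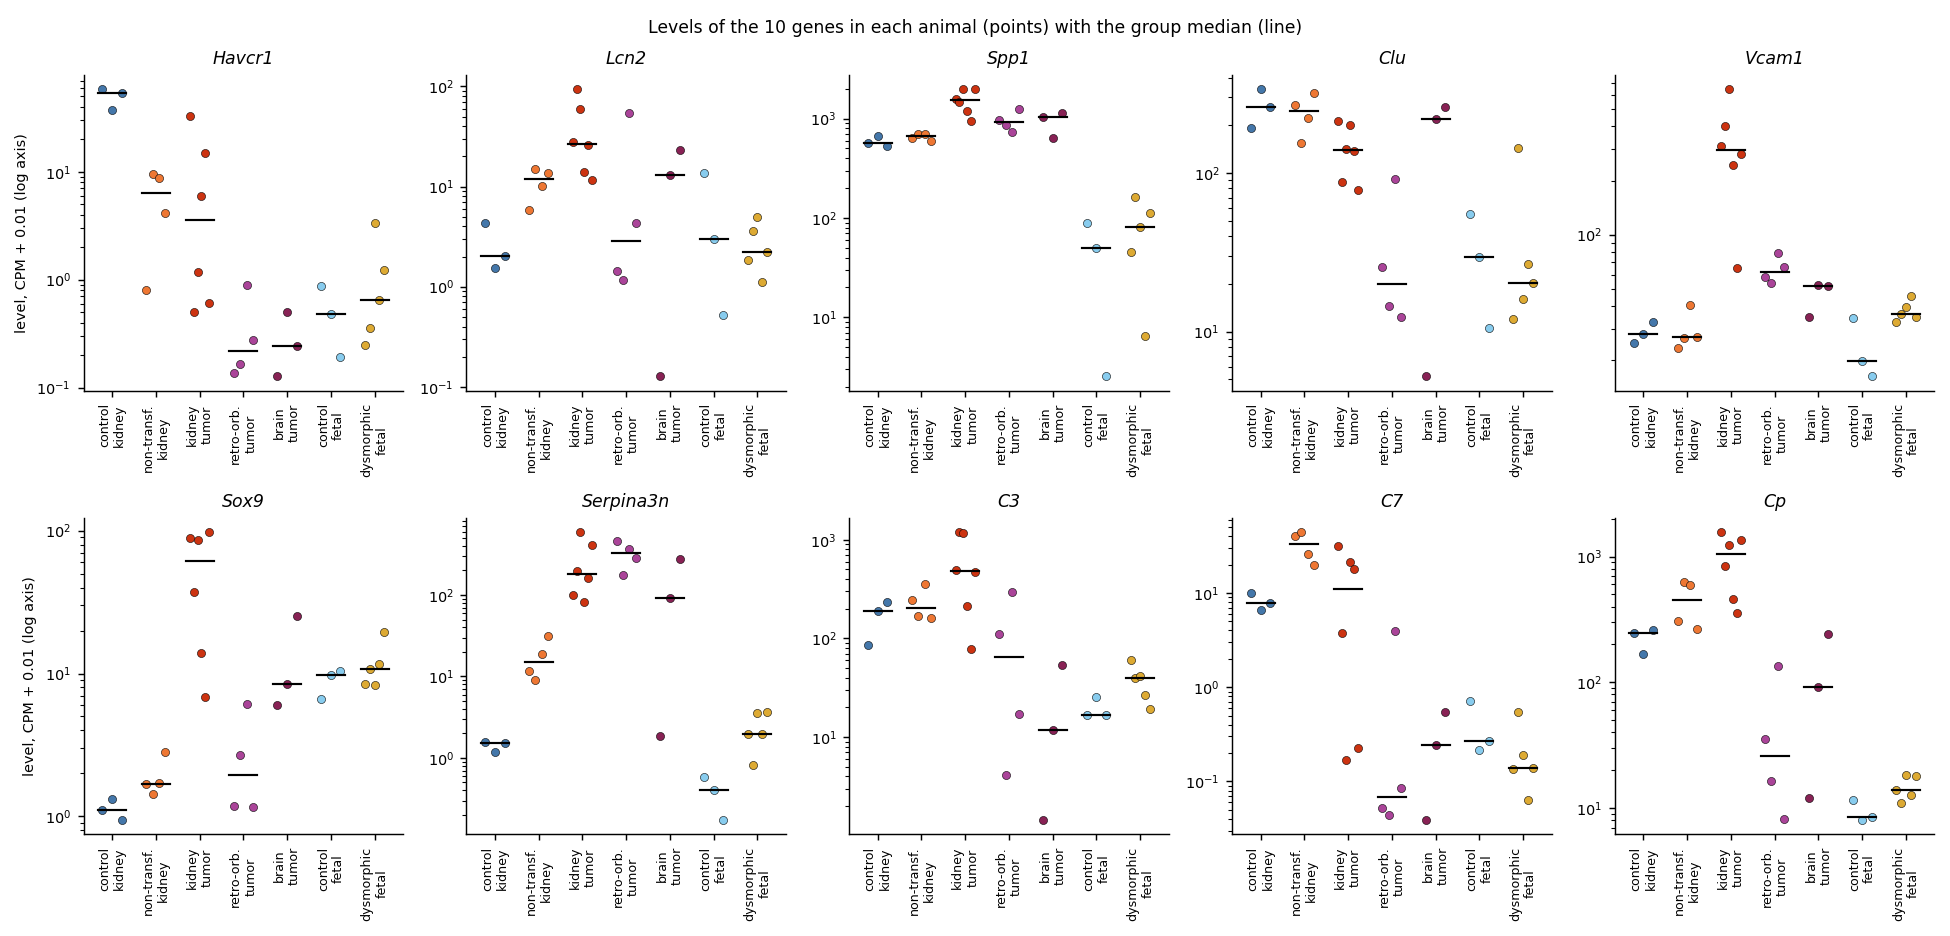
Levels of the 10 genes in each group, in CPM on log axes, with a point per animal (libraries of an animal summed) and a line at the group median. Serpina3n, C7 and Lcn2 are higher in non-transformed kidneys than in every control kidney, Havcr1 is lower, and Vcam1 and Sox9 reach their highest levels in kidney tumors.

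Havcr1 and Clu were the 2 members with a log2 fold change below 0. The Havcr1 level, summed over libraries, was 58.5, 37.5 and 53.7 CPM in control mice 1 to 3, and 0.787, 9.60, 8.67 and 4.11 CPM in non-transformed kidneys of mice 1, 3, 4 and 5. Every non-transformed kidney lay below every control mouse, and the male kidneys of mice 1 and 5 held the lowest levels. The group means were 5.79 ± 4.11 CPM (SD, n = 4) and 49.9 ± 11.0 CPM (SD, n = 3), with a difference on the log2 scale of -3.14 (SE 0.67, adjusted p = 0.186 by edgeR). Single libraries of the same control mouse differed widely, since those of mouse 2 held 1.02 and 77.4 CPM and those of mouse 3 held 28.2 and 79.9 CPM, so 1 of 6 control libraries lay within the range of the non-transformed kidneys. Without the library at 1.02 CPM, no member was called either. With female mice alone, Havcr1 differed by -2.52 (SE 0.23) and was called, at an adjusted p of 0.048 from 2 against 3 mice.

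Lcn2 was measured at 4.33, 1.53 and 2.02 CPM in control mice and at 5.77, 14.97, 10.1 and 13.6 CPM in non-transformed kidneys. All 4 fusion kidneys exceeded all 3 control mice, although the highest control library, at 5.42 CPM, came close to the kidney of mouse 1. The log2 fold change was 2.07 (SE 0.46, adjusted p = 0.196 by edgeR). Sox9 was low in both groups, at 0.938 to 1.32 CPM in controls and 1.42, 1.67, 1.70 and 2.81 CPM in non-transformed kidneys, with a log2 fold change of 0.76 (SE 0.33, adjusted p = 0.423). The groups did not overlap, but the gap between the highest control and the lowest fusion kidney was small.

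The other injury genes did not differ detectably at this number of mice. Spp1 was abundant in all kidneys, at 563, 662 and 530.2 CPM in controls and 634, 695, 698 and 601 CPM in non-transformed kidneys (log2 fold change 0.15, SE 0.11, adjusted p = 0.593). Clu was at 192 to 339.8 CPM in controls and 155 to 319.4 CPM in fusion kidneys (-0.13, adjusted p = 0.883), and Vcam1 at 25.0 to 32.6 CPM and 23.3 to 40.7 CPM (0.03, adjusted p = 0.972). The groups overlapped for all 3, and the highest Vcam1 level among the non-transformed kidneys, at 40.7 CPM, was in mouse 4.

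Serpina3n differed most. Control mice held 1.57, 1.18 and 1.51 CPM, and the non-transformed kidneys of mice 1, 3, 4 and 5 held 11.6, 9.02, 18.7 and 31.5 CPM. The lowest fusion kidney was thus well above the highest control library, which held 1.93 CPM. The means were 17.7 ± 10.1 CPM (SD, n = 4) and 1.42 ± 0.21 CPM (SD, n = 3), which differed on the log2 scale by 3.65 (SE 0.49, unadjusted p = 5.64e-05 and adjusted p = 0.173 by edgeR). Without mouse 5, whose kidney held liver transcripts, Serpina3n was called at 3.17 (SE 0.31, adjusted p = 0.0319 by edgeR), as 1 of 10 genes called among 21668. It was also called with no filter on low counts (adjusted p = 0.0463) and with libraries not summed (0.00128), a fit that counts each control mouse as 2 samples. How reads shared with other genes of the Serpina3 cluster were counted is not known, and of its paralogs Serpina3k was at 20.7 CPM in the liver-containing kidney of mouse 5, where Serpina3i was at 0.142 CPM.

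C7 was highest of all groups in the non-transformed kidneys. Its level was 9.89, 6.56 and 7.75 CPM in control mice compared to 40.2, 44.1, 26.1 and 19.9 CPM in mice 1, 3, 4 and 5, and the highest control library held 11.2 CPM. Mouse 5, the kidney with liver transcripts, had the lowest of the 4 values. The log2 fold change was 1.99 (SE 0.29, unadjusted p = 9.95e-05 and adjusted p = 0.173 by edgeR). Cp was at 247, 169 and 261 CPM in control mice and at 309.8, 626, 599 and 265 CPM in mice 1, 3, 4 and 5, so that mice 3 and 4 stood far above controls while mouse 5 barely exceeded them, and the highest control library, at 316 CPM, lay above mice 1 and 5. Its log2 fold change was 0.97 (SE 0.31, adjusted p = 0.304). C3 overlapped between groups, with 86.4, 189 and 232 CPM in controls and 244, 167, 354 and 159.9 CPM in non-transformed kidneys (0.44, SE 0.37, adjusted p = 0.658).

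Other acute phase genes were examined as a list of 18, of which 15 passed the filter on low counts. None was called by edgeR, and 11 were higher (5.4% of all genes) and 0 lower at an unadjusted p below 0.05. All 15 had a log2 fold change above 0, as did 54.4% of all genes, with a median of 2.74 (0.03 over all genes). Several of these genes were high in mouse 5 alone. Saa1 and Saa2, serum amyloid proteins made by liver in the acute phase, were at 54.9 and 66.3 CPM in mouse 5 and at no more than 0.119 and 0.0562 CPM in the other non-transformed kidneys, and Apcs and Hpx followed the same pattern. Without mouse 5, 13 of the list passed the filter, 11 were above 0, 8 were higher and 1 lower at an unadjusted p below 0.05 (5.28% of all genes were higher by that measure), and the median was 0.98. Hp (haptoglobin, which binds free hemoglobin) was then still at 3.64 (adjusted p = 0.229 by edgeR), Lrg1 at 1.63 and Mt2, a metallothionein, at 1.14. Hp itself was at 13.6, 0.929, 7.69 and 37.5 CPM in mice 1, 3, 4 and 5 and at 0.278 to 0.836 CPM in controls, so that mouse 3 hardly differed from controls.

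**Figure D2:**
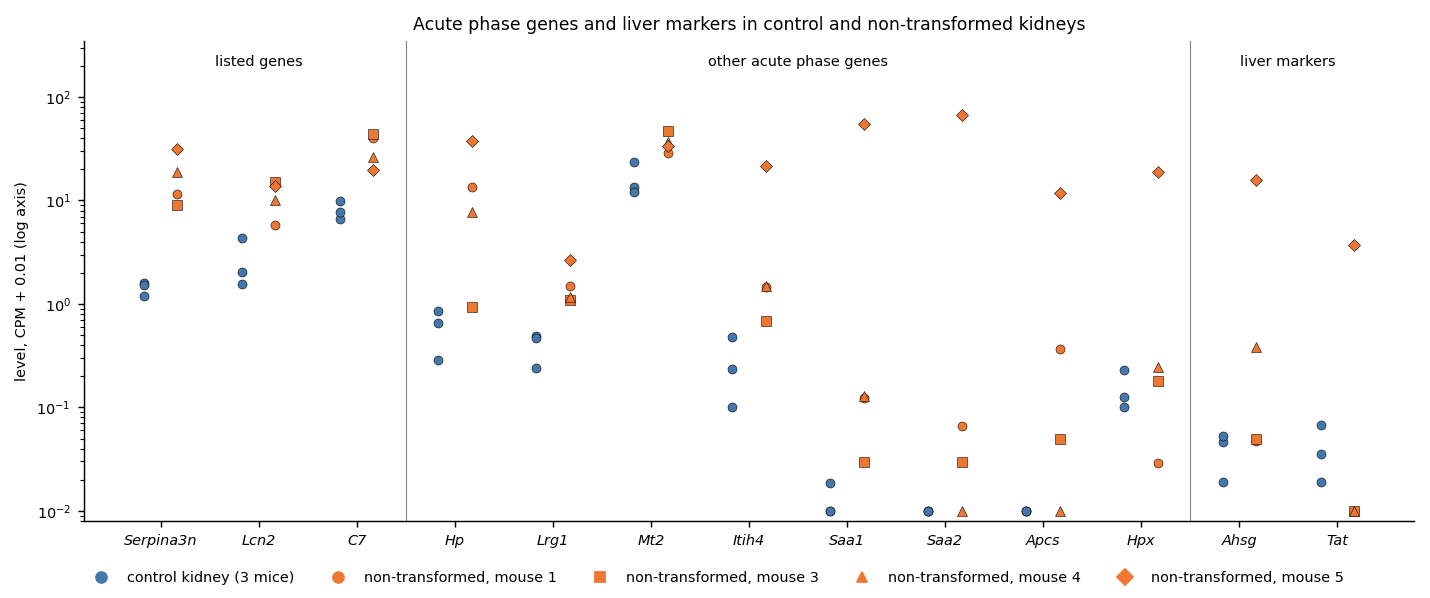
Levels in CPM (log axis, 0.01 added) of Serpina3n, Lcn2 and C7, 8 other acute phase genes and 2 liver markers in control kidneys (circles, 3 mice) and non-transformed kidneys (a symbol per mouse). Serpina3n, Lcn2, C7, Lrg1 and Mt2 are higher in all 4 fusion kidneys, while Saa1, Saa2, Apcs, Hpx and the liver markers Ahsg and Tat are high in mouse 5 alone.

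Among 28 other genes of tubular injury and repair, 0 were called by edgeR in non-transformed kidneys, 5 were higher and 1 lower at an unadjusted p below 0.05 (5.4% of all genes were higher), and 24 were above 0 (54.4% of all genes) with a median of 0.27. Timp1, an inhibitor of matrix proteases, was at 0.386 to 0.404 CPM in controls and 0.572, 1.98, 2.58 and 1.80 CPM in mice 1, 3, 4 and 5 (2.11, SE 0.48, adjusted p = 0.202). S100a6, a calcium-binding protein, was at 10.5 to 16.4 CPM and 24.7 to 44.0 CPM (1.34, SE 0.26, adjusted p = 0.173), and Ccn2, the connective tissue growth factor, was lower (-0.85, SE 0.18, adjusted p = 0.179). Of 23 complement genes tested, 0 were called and 7 were higher at an unadjusted p below 0.05, against the same 5.4%, among them C6, which precedes C7 in the membrane attack complex, at 0.78 (SE 0.34, adjusted p = 0.423). With all mice, none of 14 genes of IL-6 and NF-kB signalling passed even the unadjusted threshold, and without mouse 5, 1 of 15 did, namely Osmr, the oncostatin M receptor, at 0.64 (p = 0.00573, adjusted p = 0.241 by edgeR). Of 10 receptors and binding partners of the members, 0 were called, and Timd2, a relative of Havcr1, was at 122 and 84.2 CPM in the male kidneys of mice 1 and 5 but at 7.88 and 7.85 CPM in the females, close to the 4.18 to 8.72 CPM of the female controls.

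Markers of other cells moved with this comparison only in part. The summed level of 16 proximal tubule genes was 18520 to 22350 CPM in non-transformed kidneys and 15240 to 21770 CPM in control libraries, and 0 of the 16 were called. Leukocyte markers (11 genes) summed to 110 to 269 CPM compared to 135 to 204 CPM, with 4 of 11 higher at an unadjusted p below 0.05 (5.4% of all genes), among them S100a9 at 1.86 (SE 0.60, adjusted p = 0.299). The 5 brain markers tested were all above 0 (median 0.62), 2 of them at an unadjusted p below 0.05 (5.4% of all genes were higher), and their list summed to 85.7 CPM in the kidney of mouse 3, compared to 8.10 to 43.1 CPM in the other non-transformed kidneys and 7.72 to 43.0 CPM in control libraries. Of 5 liver markers tested, 4 were above 0 (median 1.03) and 2 were higher at an unadjusted p below 0.05. Without mouse 5, Cps1, a urea cycle enzyme, was at 4.04 and Apoc3, an apolipoprotein, at 1.82, while Alb (albumin) was at -1.03 (adjusted p = 0.187, 0.236 and 0.251 by edgeR). Gfap, an astrocyte filament protein, was at 4.51 without mouse 5 (adjusted p = 0.222 by edgeR). Gpnmb, a lysosomal glycoprotein induced by TFE3, was 1 of the 2 genes called, at 111, 461, 380 and 120 CPM in mice 1, 3, 4 and 5 compared to 2.08 ± 0.47 CPM (SD, n = 3) in controls (6.97, adjusted p = 0.0483 by edgeR). The part of leukocytes, of brain and liver transcripts and of fusion-expressing cells in the differences of Serpina3n, Lcn2, C7 and Cp was not tested.

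In kidney tumors compared to control kidneys, 6 of the 10 genes rose, namely Serpina3n, Sox9, Lcn2, Vcam1, Cp and Spp1. Of all genes, 19% were called by edgeR, 12.5% higher and 6.51% lower. The mice did not overlap for 7 members, the 6 that rose and Havcr1, which was lower, compared to 29.9% of all genes. Both comparisons with control kidneys use the same 3 control mice.

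**Figure D3:**
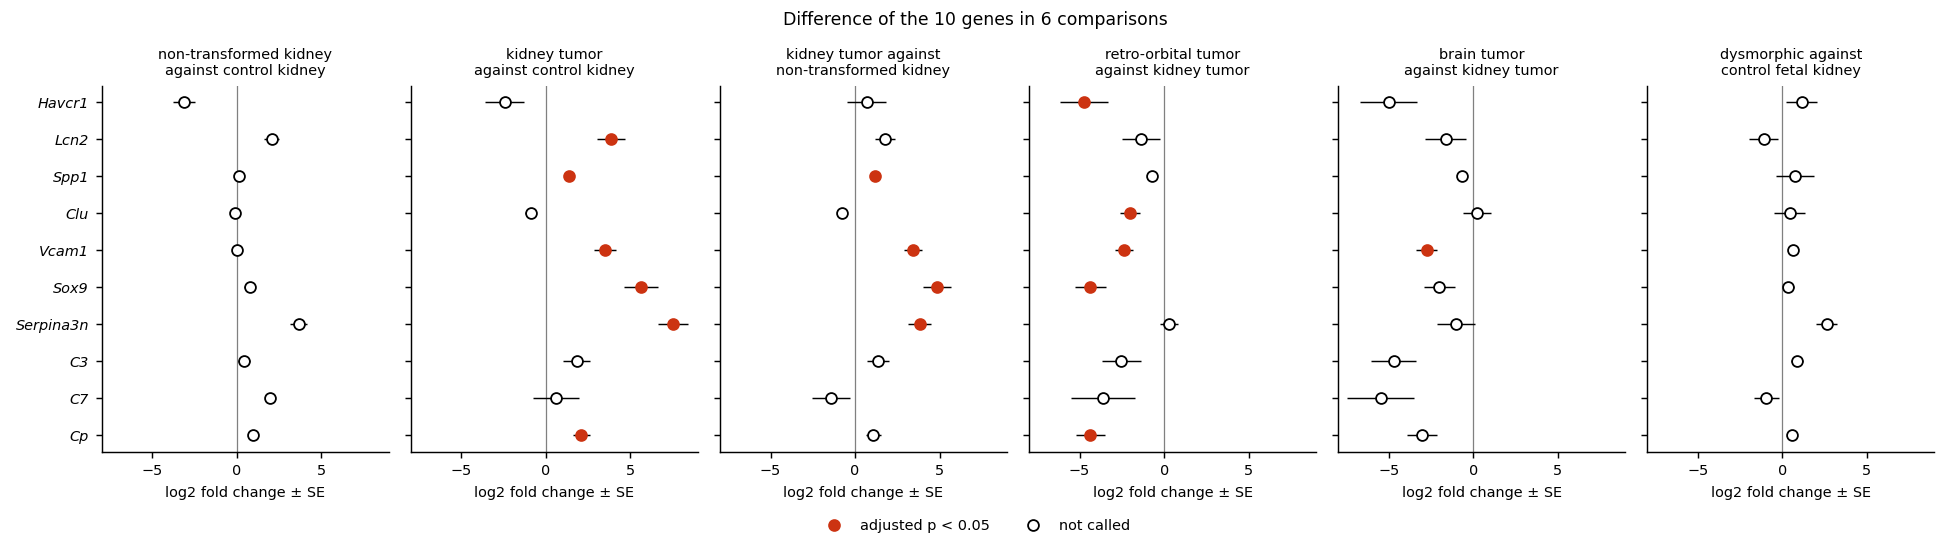
Log2 fold change with its SE (line) of each gene in 6 comparisons, with filled points for an adjusted p below 0.05 by edgeR. Serpina3n stands highest in both comparisons with control kidneys, 6 genes are called higher in kidney tumors than in controls, and 5 are called lower in retro-orbital tumors when set against kidney tumors.

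Serpina3n reached 83.1 CPM in the lowest, 180 CPM in the median and 589.8 CPM in the highest of the 6 mice with kidney tumors, all above the highest control at 1.57 CPM. Its log2 fold change of 7.50 (SE 0.89, adjusted p = 9.7e-04 by edgeR) was the greatest of the 10. Sox9 was at 6.89 CPM (mouse 5), 61.8 CPM (median) and 97.6 CPM (mouse 6), compared to at most 1.32 CPM in controls, and rose by 5.62 (SE 1.02, adjusted p = 0.00766). Tumors of mice 4 and 5, with 13.8 and 6.89 CPM, held far less Sox9 than the tumors of the other mice, at 37.3 CPM and above.

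Lcn2 was at 11.6, 26.7 and 94.4 CPM in the lowest, median and highest mouse, above the 4.33 CPM of the highest control, and rose by 3.86 (SE 0.82, adjusted p = 0.0139 by edgeR). Vcam1 was at 65.0, 295 and 646 CPM, compared to at most 32.6 CPM in controls, and rose by 3.49 (SE 0.64, adjusted p = 0.00796). No tumor-bearing mouse overlapped with controls for either gene, although a single tumor library of mouse 4 held only 46.2 CPM of Vcam1. Cp (358, 1041 and 1561 CPM) rose by 2.10 (SE 0.51, adjusted p = 0.0235) and Spp1 (939.5, 1522 and 1987 CPM) by 1.37 (SE 0.27, adjusted p = 0.0105).

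Some of these calls were lost without a control mouse. Lcn2 was not called without control mouse 2 or 3 (adjusted p = 0.0757 and 0.0733 by edgeR), Spp1 was not called without control mouse 3 (0.058), and Cp was not called without control mouse 1, 2 or 3 (0.0713, 0.107 and 0.0812). The differences themselves moved little, to 3.60 and 3.71 for Lcn2, 1.32 for Spp1 and 2.18, 1.94 and 2.23 for Cp. A joint fit of all groups called neither Lcn2 (3.84, adjusted p = 0.0626) nor Cp (2.07, 0.0998). Vcam1, Sox9 and Serpina3n were called in every fit that left out a mouse.

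Havcr1 did not pass in the tumors, with 33.0 CPM in mouse 1, 0.496 CPM in mouse 2, 1.17 CPM in mouse 3, 5.92 CPM in mouse 4, 14.96 CPM in mouse 5 and 0.598 CPM in mouse 6 (-2.43, SE 1.16, adjusted p = 0.162 by edgeR). Every mouse lay below the lowest control at 37.5 CPM, but tumor libraries ranged from 0.221 to 63.1 CPM. With sex as a covariate the fold change was -4.63 (SE 0.91) and passed, at an adjusted p of 0.0098, and with female mice alone it was -4.59 (adjusted p = 0.0149). C3 (77.8, 483 and 1192 CPM in the lowest, median and highest mouse) overlapped with controls through mice 4 and 5 and was not called (1.82, SE 0.81, adjusted p = 0.138). It was called without mouse 5 at 2.08 (adjusted p = 0.0398 by edgeR), in female mice alone at 2.19 (0.0456) and with libraries not summed at 1.99 (0.0118). Clu (77.8, 139.6 and 212 CPM) was at -0.90 (SE 0.33, adjusted p = 0.0842). It was called lower with limma-voom and mouse as a random effect (-0.98, adjusted p = 0.0393) and with libraries not summed (-0.85, 0.0265).

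C7 varied most between tumors. Its level was 31.1, 21.2 and 18.1 CPM in mice 1, 4 and 5, above all controls, 3.74 CPM in mouse 2, and 0.161 and 0.215 CPM in mice 3 and 6. The log2 fold change of 0.60 (SE 1.34, adjusted p = 0.775 by edgeR) therefore averages mice on both sides of the controls. Both tumor libraries of a mouse fell on the same side of the controls in mouse 1 (20.4 and 41.2 CPM) and mouse 4 (29.8 and 12.5 CPM), where the highest control library held 11.2 CPM, and in mouse 3 (0.230 and 0.0925 CPM) and mouse 6 (0.119 and 0.306 CPM), where the lowest control library held 4.35 CPM.

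Proximal tubule content differed among the tumor libraries and moved with several of these genes. The 16 proximal tubule genes summed to 15820 and 10080 CPM in the tumor libraries of mouse 4 and 14490 CPM in that of mouse 5, the first of which lay within the 15240 to 21770 CPM of control libraries and the others below it, to 7543 CPM in 1 library of mouse 1, and to 1054 to 2483 CPM in the other 7 libraries. The tumors of mice 4 and 5 had the lowest Sox9, Vcam1, Cp, Spp1 and C3 of the 6 mice and some of the higher values of C7 and Havcr1. The part of adjacent tubule in these levels was not tested.

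**Figure D4:**
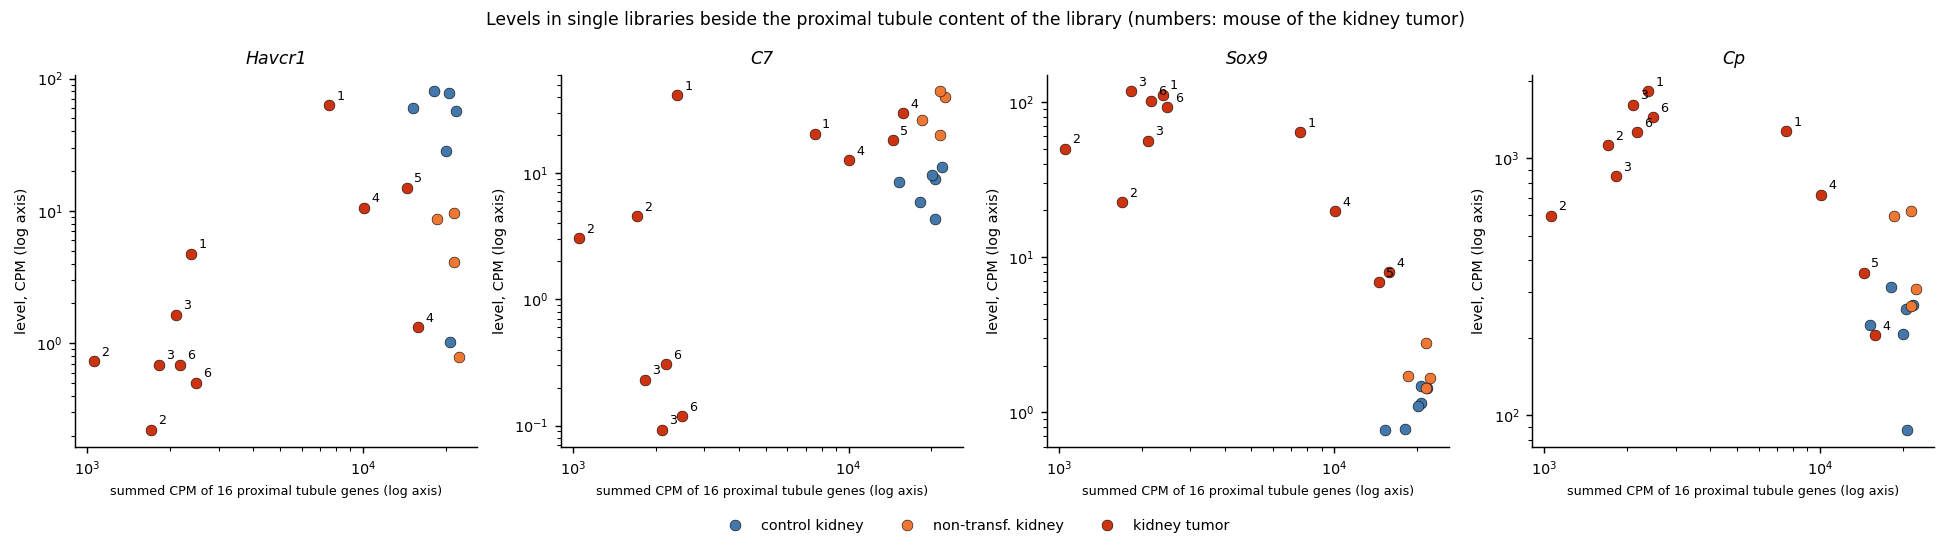
Levels of Havcr1, C7, Sox9 and Cp (CPM, log axis) in single libraries against the summed level of 16 proximal tubule genes (CPM, log axis), for 6 control kidney, 4 non-transformed kidney and 11 kidney tumor libraries, numbered by mouse for the tumors. Tumor libraries of mice 4 and 5 lie nearest the kidneys in tubule content and hold less Sox9 than the other tumor libraries.

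Among the other injury and repair genes, 17 of 28 rose and 1 fell in kidney tumors compared to controls, with a median of 1.93 (0.05 over all genes). Counts in these lists are read against 12.5% of all genes called higher and 6.51% called lower. Timp1 rose by 6.18 (SE 0.65, adjusted p = 5.2e-04 by edgeR), Gdf15, a secreted stress cytokine, by 4.51 and Cd44, a hyaluronan receptor, by 4.47. Atf3 (4.39), Hmox1 (3.28, heme oxygenase) and the cell cycle inhibitor Cdkn1a (2.01) rose as well, while Prom1, a surface marker of tubular progenitors, fell by 1.84. Of 16 other acute phase genes tested, 4 rose (Orm2, Itih3, Mt1 and Mt2), with Orm2, an acid glycoprotein, at 8.30. Of 23 complement genes, 8 rose, among them C1qa at 1.90, C1qb and C1qc, which macrophages make, and Hc (complement C5) at 4.64.

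IL-6 and NF-kB signalling had 5 of 16 genes called higher and 0 lower in the tumors, where 12.5% of all genes were called higher. Stat3 rose by 1.51 (SE 0.35, adjusted p = 0.0201 by edgeR), its feedback inhibitor Socs3 by 2.26, the transcription factor Cebpb by 2.31, and the NF-kB subunits Relb and Nfkb2 by 1.31 and 1.16. Among binding partners, Itgb3, the integrin chain that binds osteopontin, rose by 3.41 (SE 0.32, adjusted p = 3e-04), Itgb1 by 0.63 and Hephl1, a relative of Cp, by 7.43. Leukocyte markers summed to 154 to 817 CPM in tumor libraries, with 4 of 11 markers higher, and fibroblast and pericyte markers to 1111 to 3939 CPM compared to 445 to 884 CPM in control libraries. The part of these cells in the levels of the 10 genes was not tested.

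Kidney tumors compared to non-transformed kidneys held more Sox9, Serpina3n, Vcam1 and Spp1. These 4 genes were called higher by edgeR, where 17.1% of all genes were called and 12.1% were called higher. Sox9 rose by 4.84 (SE 0.82, adjusted p = 0.0043), Serpina3n by 3.83 (SE 0.69, adjusted p = 0.00545), Vcam1 by 3.44 (SE 0.54, adjusted p = 0.00289) and Spp1 by 1.19 (SE 0.21, adjusted p = 0.00562), and the mice of the groups did not overlap for any of them, as for 17.7% of all genes. The lowest tumor value of Serpina3n, at 83.1 CPM, was above the highest non-transformed kidney, at 31.5 CPM, which in turn was above all controls. Markers of other cells moved with this comparison. The 16 proximal tubule genes had a median of -1.93 with 0 called, and 2 of 6 liver markers were called lower. Fibroblast and pericyte genes were called higher for 4 of 8 and leukocyte genes for 4 of 11, compared to the same 12.1%. The part of these cells in the members' levels was not tested.

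All other members overlapped between tumor and non-transformed kidney. Lcn2 was at 1.78 (adjusted p = 0.0694 by edgeR) and Cp at 1.09 (adjusted p = 0.119). Havcr1 was at 0.68 (adjusted p = 0.713), C3 at 1.36 (0.179), Clu at -0.78 (0.107) and C7 at -1.41 (SE 1.14, 0.399). DESeq2, which called 27.8% of all genes, called Lcn2 at the same difference (adjusted p = 0.0137), and so did edgeR without mouse 6 (1.95, 0.0498). With limma-voom and mouse as a random effect, C7 was at -3.29 (SE 1.03) and was called (adjusted p = 0.024). All 4 non-transformed kidneys shared a mouse with a tumor. With mouse as a replicate block, 0 members were called, and the differences were 4.04 for Sox9 (adjusted p = 0.0981), 3.25 for Serpina3n (0.0798), 3.03 for Vcam1 (0.0612) and 1.03 for Spp1 (0.0819). That fit called 847 genes by edgeR, compared to 3755 without the block.

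Injury genes other than the members were called higher for 13 of 28 in the tumors and lower for 0, including Timp1 (4.04), Gdf15 (3.97), Atf3 (3.98) and Hmox1 (2.94). Of 16 other acute phase genes, Mt1 was higher (0.87) and Hamp, the iron hormone hepcidin, was lower (-5.05, adjusted p = 0.0495), the latter with 7.47 CPM in the kidney of mouse 5 that held liver transcripts. Compared to 12.1% of all genes, complement genes were called higher for 7 of 23, IL-6 and NF-kB genes for 4 of 16 (Stat3, Socs3, Nfkb2 and Tnfaip3) and binding partners for 1 of 10 (Itgb3, 3.02). With mouse as a replicate block, 6 of 28 injury genes (Cdkn1a, Timp1, Akap12, Tnfrsf12a, Atf3 and Hmox1), 0 of 15 acute phase genes, 1 of 23 complement genes (C2), 0 of 16 IL-6 and NF-kB genes and Itgb3 were called, all higher, as were 4.01% of all genes.

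Retro-orbital tumors, which the same mice carried behind the eye, held less of 5 members than kidney tumors, while Serpina3n did not differ detectably. Of all genes, 17.7% were called by edgeR and 9.45% were called lower. Cp was at 35.2, 16.3, 134 and 8.21 CPM in mice 2, 3, 5 and 6, compared to 358 CPM or more in every kidney tumor mouse, and was lower, at -4.36 on the log2 scale (SE 0.89, adjusted p = 0.00924). Sox9 was at 1.17, 2.67, 6.07 and 1.16 CPM and was lower, at -4.36 (SE 0.94, adjusted p = 0.0119), with no retro-orbital tumor reaching the lowest kidney tumor mouse at 6.89 CPM. For 7.91% of all genes every retro-orbital tumor lay below every kidney tumor mouse. Markers of other cells moved with this comparison, since proximal tubule genes had a median of -3.47 (7 of 16 lower at an unadjusted p below 0.05, 0 called, and 6 called lower with mouse as a replicate block) and 2 of 5 podocyte and parietal genes were called lower. Fibroblast and pericyte genes were called higher for 2 of 8 and endothelial genes for 2 of 5, as were 8.26% of all genes. The part of these cells in the members' levels was not tested.

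Vcam1 (58.2, 53.5, 78.5 and 66.3 CPM) was lower, at -2.38 (SE 0.51, adjusted p = 0.0119 by edgeR), Clu (25.4, 14.6, 91.4 and 12.4 CPM) at -2.02 (SE 0.60, adjusted p = 0.0433) and Havcr1 (0.126, 0.154, 0.881 and 0.265 CPM) at -4.75 (SE 1.44, adjusted p = 0.0464). For these genes the tumor types overlapped, in part through mouse 5. Serpina3n was at 465.8, 176, 365 and 283 CPM in mice 2, 3, 5 and 6, the highest median of the 7 groups, and differed from kidney tumors by 0.27 (adjusted p = 0.768), with overlapping groups. Spp1 (-0.73, adjusted p = 0.0635), Lcn2 (-1.37), C3 (-2.52) and C7 (-3.63) were not called. With limma-voom and mouse as a random effect, Spp1 (-0.72, adjusted p = 0.00573) and C3 (-3.73, 0.0103) were called and Havcr1 was not (-2.48, 0.198).

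The retro-orbital calls changed with single mice and with pairing, while the differences of the 5 called members kept their direction. With mouse as a replicate block, 3 members were called by edgeR (Havcr1 at -2.54, Clu at -2.08 and Spp1 at -0.70, adjusted p = 0.0477, 0.0495 and 0.0497), where 6.99% of all genes were called lower and 6.09% higher, and Vcam1 (-2.11), Sox9 (-4.48) and Cp (-5.08) had adjusted p of 0.0999, 0.0742 and 0.0539. Without mouse 2 or mouse 3, 0 members were called, although Vcam1 was at -2.27 and -1.98, Sox9 at -4.21 and -4.17 and Cp at -4.27 and -3.99. There were 3 called without mouse 1 or mouse 4, 1 without mouse 6 (Cp) and 7 without mouse 5 (3503 of 22909 genes). Without mouse 5, whose retro-orbital tumor held the highest Lcn2, C3, C7 and Cp of the group, Lcn2 was at -4.17 (adjusted p = 0.0181), C3 at -3.99 (0.0487) and C7 at -7.77 (0.0446), and all 3 passed. The retro-orbital tumor of mouse 5 also held 2391 CPM of proximal tubule genes, compared to 986 to 1015 CPM in the other retro-orbital tumors, and the part of tubule in its values was not tested.

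Brain tumors differed from kidney tumors in 1 called member, Vcam1, at 34.7, 52.3 and 51.7 CPM in mice 1, 2 and 4 (-2.76, SE 0.62, adjusted p = 0.0318 by edgeR). Of all genes, 8.74% were called and 4.2% were called lower. All 3 brain tumors lay below every kidney tumor mouse for 4 members (Vcam1, Havcr1, C3 and Cp), as for 8.96% of all genes, and for Havcr1 only just, at 0.491 CPM compared to 0.496 CPM. Marker genes of several cell types were lower as well, with 4 of 8 fibroblast and pericyte genes and 2 of 5 endothelial genes called, and with a median of -4.52 for 16 proximal tubule genes, of which 1 was called and 14 were lower at an unadjusted p below 0.05. Their part in the members' levels was not tested. The call of Vcam1 was lost with mouse as a replicate block (-2.76, SE 0.29, adjusted p = 0.267), a fit that called 0 genes by edgeR with 2870 at an unadjusted p below 0.05, and in fits without mouse 1, 2, 4 or 6 (adjusted p = 0.122, 0.124, 0.0804 and 0.051). DESeq2 without the block called 5 members (Havcr1, Vcam1, C3, C7 and Cp) among 5115 genes (22.5%).

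The 3 brain tumors were unlike each other in the acute phase genes. Serpina3n was at 1.86 CPM in mouse 1, 91.7 CPM in mouse 2 and 280 CPM in mouse 4, Lcn2 at 0.117, 13.1 and 22.9 CPM, and Clu at 5.22, 220.2 and 263 CPM. Mouse 1 was the lowest for all 3, and its sample was also the lowest in brain markers, whose part in these values was not tested. C3 (1.45, 11.9 and 54.1 CPM) and C7 (0.0293, 0.233 and 0.542 CPM) followed the same order, with log2 fold changes of -4.70 (adjusted p = 0.0594 by edgeR) and -5.49 (0.108), and Cp (12.0, 91.3 and 243 CPM) was at -3.03 (0.067). Both comparisons of tumor sites use the same kidney tumors.

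Calls in the gene lists are read against 8.26% of all genes called higher and 9.45% lower in retro-orbital tumors, and 4.54% and 4.2% in brain tumors. In retro-orbital compared to kidney tumors, 3 of 28 injury genes were higher (Vim, Akap12 and S100a6) and 4 lower (Krt20, Gdf15, Cd24a and Dcdc2a, which are epithelial genes apart from Gdf15), and 5 of 16 acute phase genes were lower and 0 higher (Orm1, Orm2, Itih3, Fga and Fgb). Socs3 (1.03) and Il1b (1.65) were higher and 1 of 23 complement genes was lower (Cd59a, an inhibitor of the membrane attack complex, at -1.18, adjusted p = 0.0183 by edgeR). In brain compared to kidney tumors, 4 of 28 injury genes were lower (Krt8, Igfbp7, Ccn2 and Cd24a), 3 of 17 acute phase genes were lower (Fga, Fgb and Fgg) and Mt2 was higher, and 4 of 23 complement genes were lower (C1s1, Hc, Cfi and Serping1). Itgb3 was higher at both sites (2.08 and 1.95) and Slc40a1, the iron exporter that works with ceruloplasmin, was lower (-1.42 and -2.64). With mouse as a replicate block, 3 of 28 injury genes were higher and 5 lower in retro-orbital tumors, 2 of 14 acute phase genes were lower (Orm2 and Fga), 2 of 22 complement genes were lower (C8a and Cd59a), 0 of 16 IL-6 and NF-kB genes were called, and Itgb3 and Itga4 were higher. The same block left 0 of all genes called in brain tumors, with list medians of -1.72 for injury, -2.46 for acute phase and -1.56 for complement genes, compared to -1.57, -1.80 and -1.06 without it.

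In the fetal kidneys the tissue labels were checked first, with genes chosen after the fetal values had been seen. The summed level of 6 intestinal epithelial genes was 7.72, 2074 and 3387 CPM in control fetuses 1 to 3, and 6.45, 52.1, 31.1, 8.24 and 1995 CPM in dysmorphic fetuses 1 to 5. The summed level of 5 nephron genes was 1018, 434 and 72.3 CPM in the controls and 26.5, 128.7, 30.1, 9.003 and 70.2 CPM in the dysmorphic kidneys. Cpa1, a gene of the exocrine pancreas, was at 136, 174 and 1.09 CPM in the controls. In the dysmorphic kidneys Cpa1 was at 2.39, 95.5, 9.73, 28.4 and 2.20 CPM. The 7 liver markers summed to 7.15 to 2468 CPM in controls and 11.45 to 1289 CPM in dysmorphic kidneys. The part of pancreas and liver in the members' levels was not tested. Control fetus 3 held Fabp2, an intestinal fatty acid binding protein, at 693 CPM and Nphs1, the podocyte protein nephrin, at 0.148 CPM, so its label as kidney went against its defining markers.

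**Figure D5:**
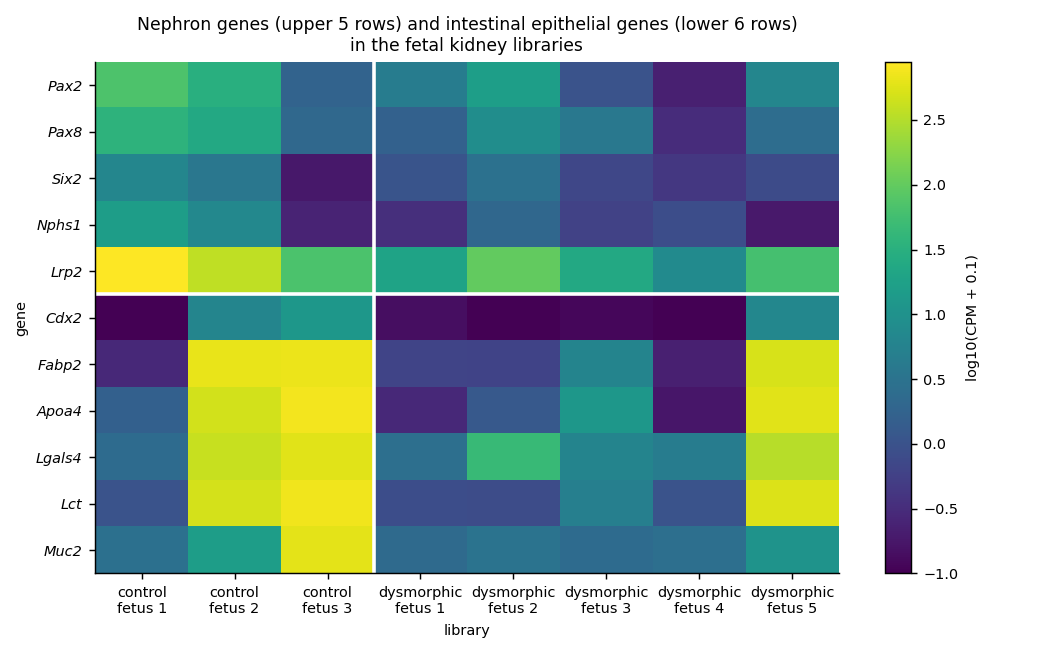
Levels, as log10(CPM + 0.1), of 5 nephron genes (upper rows) and 6 intestinal epithelial genes (lower rows) in the 3 control and 5 dysmorphic fetal kidney libraries. Control fetuses 2 and 3 and dysmorphic fetus 5 are high in intestinal genes, and control fetus 1 is the highest in all 5 nephron genes. Pancreas and liver genes are not shown.

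None of the 10 genes was called by edgeR between dysmorphic and control fetal kidneys, where 2.67% of all genes were called. At an unadjusted p below 0.05, 4 members were higher (Serpina3n, Vcam1, C3 and Cp), as were 12.6% of all genes, and DESeq2 called 1 member (Serpina3n) and 12.7% of all genes. Fibroblast and pericyte markers moved with the same groups, with summed levels of at most 5693 CPM in controls and 8178 to 17360 CPM in dysmorphic kidneys and 2 of 8 called higher, and their part in the members' levels was not tested. Serpina3n was at 0.566, 0.388 and 0.165 CPM in control fetuses and at 1.97, 0.815, 3.59, 1.94 and 3.68 CPM in dysmorphic fetuses. It was the member whose groups did not overlap, with each dysmorphic kidney above each control as for 9.55% of all genes, and had a log2 fold change of 2.63 (SE 0.62, adjusted p = 0.0663). Without control fetus 3 and dysmorphic fetus 5 the difference was 2.08 (SE 0.63, adjusted p = 0.135), with 0 of 22991 genes called by edgeR. In that fit 5 of 7 liver markers had a log2 fold change above 0. By an unadjusted edgeR p below 0.05, 3 were higher (12.2% of all genes) and 2 lower. Their part in the Serpina3n difference was not tested. Without control fetus 2 as well, which leaves a lone control, the Serpina3n difference was 1.85. Without dysmorphic fetus 2 Serpina3n was called at 2.84 (adjusted p = 0.0272). The names of the fetal samples share 2 prefixes, whose meaning the labels do not give, one for dysmorphic fetuses 1 to 3 and control fetuses 1 and 2 and the other for dysmorphic fetuses 4 and 5 and control fetus 3. With the prefix as a term, 0 members and 409 genes were called by edgeR, and Serpina3n was at 2.68 (SE 0.68, adjusted p = 0.0786).

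The remaining members showed small or inconsistent differences between the fetal groups. Vcam1 was at 34.2, 19.8 and 16.3 CPM in controls and 32.8 to 45.3 CPM in dysmorphic kidneys (0.63, adjusted p = 0.199 by edgeR), C3 at 16.6 to 25.7 CPM and 19.3 to 60.1 CPM (0.88, 0.228) and Cp at 8.08 to 11.7 CPM and 10.9 to 18.4 CPM (0.60, 0.192). Lcn2 was highest in control fetus 1, at 13.6 CPM, and its difference of -1.11 turned to 0.59 without that fetus. Among the lists, Cdkn1a (1.13), Cd44 (2.25) and Atf3 (1.39) of the injury genes and Il6ra (1.07) were called higher with all 8 libraries. Without control fetus 3 and dysmorphic fetus 5 these genes were at 1.24, 2.36, 1.52 and 1.14, with adjusted p of 0.0907, 0.0853, 0.0853 and 0.0926, in the fit that called 0 genes. Y-linked transcripts showed 1 male among 3 control fetuses and 3 males among 5 dysmorphic fetuses. Of all genes, edgeR called 605 with all libraries, 5 with sex as a covariate, and 1247 and 1141 without dysmorphic fetus 2 or 5. It called 0 without any single control fetus or without dysmorphic fetus 1, 3 or 4.

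Compared per kilobase of transcript by group mean, Spp1 was the most abundant of the 10 in control kidneys (355 CPM per kb), followed by Clu (76.8), C3 (32.8), Cp (23.6) and Havcr1 (21.6), while Serpina3n (0.687) and Sox9 (0.271) were the lowest. In kidney tumors Spp1 was again first, at 923 CPM per kb, with Serpina3n (125), C3 (117) and Cp (101) next and Havcr1 last (4.05). By median the order of these 3 was Cp (109 CPM per kb), C3 (93.8) and Serpina3n (87.4), so they could not be ranked. By group median, Havcr1 and Clu were highest in control kidneys, C7 in non-transformed kidneys, Serpina3n in retro-orbital tumors, and Lcn2, Spp1, Vcam1, Sox9, C3 and Cp in kidney tumors. The control kidneys did not overlap with any other group for Havcr1, whereas neighbouring groups overlapped at most other steps of these orders.

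The genes most like each member were taken from 15646 genes by Pearson's correlation of log2(CPM + 1) over the 20 animal-by-tissue samples of the Sglt2-Cre table. These points share mice and tissues, and the correlations are descriptions. Sox9 ran most closely with Clec18a (0.929), Rapsn and Gdf15 (0.918), and Lcn2, with the lowest correlations of the 10, with Bcl3, an NF-kB cofactor (0.845), Col4a6 (0.804) and Lce1d (0.797). Serpina3n was most like Akr1b8 (0.944), an aldo-keto reductase, with Ahnak2 and Crlf2, and C7 like Hsd3b2 (0.947), Muc20 and Muc1. Spp1 was nearest to Tpra1 (0.945), Fuca2 (0.941), a lysosomal fucosidase, and Plin3, Vcam1 to Atg7 (0.93), Nlrp10 and Ugt2b35, and C3 to Xdh (0.932), Tgm2 and Map3k14. Cp was nearest to Chmp4c (0.952), Sema3c and Efemp1, Clu to Cadps2 (0.925), Ptk2b and Map3k9, and Havcr1 to Misp (0.864), Tcf21 (0.857) and Sertad2 (0.854).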

How the data were processed

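The authors deposited raw counts per gene for 36 libraries, 28 in an Sglt2-Cre table and 8 in a Pax8-Cre table, with no normalization. Per the labels, stranded total RNA libraries were made from fixed tissue without ribosomal depletion, and FastQC, MultiQC, Bowtie2, STAR 2.5.2a and the builds GRCm38 and mm10 are named in the submitters' processing notes without their roles. The counter, its strand setting and the annotation are not given in the sources used here. Of 53379 Ensembl identifiers, 53274 matched GENCODE M21 (GRCm38) without their version, which gave symbols and coordinates. Even numbers made up 79.04% to 84.33% of the values from 1 to 20 in every library, so that independent fragments may be fewer than counts, and floors cover counting error only.

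Counts were summed per animal and tissue and fitted with edgeR 4.0.16 in R 4.3.3 (TMM, filterByExpr, quasi-likelihood F-test) for each comparison on its own groups, with Benjamini-Hochberg adjustment over all genes tested and calls at an adjusted p below 0.05. The SE is the absolute log2 fold change divided by the root of F. Animals below 50 CPM of Y-linked transcripts were taken as female. Libraries of an animal were not duplicates of each other, and p-values measure the spread between these animals. The main edgeR fit of each comparison was tested on simulated counts with known changes. The paper given with the series describes other fusion mice, so no design was taken from it. The members and lists were chosen with earlier results of these data known. Named genes were the members, the genes of the lists and the 3 genes nearest to each member, and the fetal check genes were chosen after the fetal values were seen.

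Tumor and non-transformed tissues of the same mouse pair the samples. Deviations from the group means correlated across genes at -0.06 to 0.16 between kidney tumor and non-transformed kidney, 0.248 to 0.329 between kidney and retro-orbital tumor, and -0.072 to -0.067 between kidney and brain tumor. Alternatives were RLE factors, DESeq2 1.42.0, other filters, halved counts, a joint fit, limma-voom (limma 3.58.1), every library as its own sample, sex, female animals alone, a replicate block and fits that left out an animal. Fits without the fetal libraries that held intestinal transcripts and without the control library lowest in Havcr1, and a fit with the shared prefix of fetal sample names as a term, were chosen after seeing the data. Some genes of the gene lists are not reported here.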

Additional observations from a re-analysis of the deposited data

Results flagged for a closer look

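In 40 checks of a member in a group of 4 to 6 animals, 5 values lay far above the others of their group (Dixon's criterion). All came from the retro-orbital tumor of mouse 5 or from dysmorphic fetus 2. The criterion's chance rate of about 1 in 20 assumes normal and independent values. The levels were CPM without a log scale and the members share samples, so the number expected by chance is not known. The retro-orbital tumor of mouse 5 held 54.0 CPM of Lcn2 compared to 1.15 to 4.27 CPM in the other retro-orbital tumors. The same sample held 91.4 CPM of Clu compared to 12.4 to 25.4 CPM, and 3.92 CPM of C7 compared to 0.0343 to 0.0744 CPM. It also held 2391 CPM of proximal tubule genes (986 to 1015 CPM in the others) and, beside Y-linked transcripts at 509 CPM, 4.17 CPM of Xist, which was at 0.041 to 0.313 CPM in the other male adult samples apart from the kidney tumor of mouse 5 (5.60 CPM). The part of mixed material in these values was not tested. Among the dysmorphic fetal kidneys, fetus 2 held 145 CPM of Clu compared to 12.0 to 26.7 CPM in the others, and 0.533 CPM of C7 compared to 0.053 to 0.179 CPM. Fetus 2 also had the highest nephron gene sum of the dysmorphic kidneys, at 128.7 CPM. It held the highest level of the pancreas gene Cpa1 among them as well, at 95.5 CPM compared to 2.20 to 28.4 CPM. The part of nephron content and of pancreas in both values was not tested.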

How the results depend on the processing

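Of 1028 recomputed log2 fold changes of single members, 916 kept their direction and their side of the threshold, 44 lost a call, 48 gained one and 20 changed sign. For non-transformed against control kidneys, the 0 called members became 4 with DESeq2, 1 with no filter on low counts, 2 with every library as its own sample and 1 with female animals alone, with 0 to 1 when an animal was left out, while the genes called overall went from 2 to 493 with DESeq2 and 227 with every library. Kidney tumors against controls gave 6 called members, 8 with every library or with females alone, 4 with the joint fit and 3 to 7 without an animal, and kidney tumors against non-transformed kidneys 4 to 5, or 0 with the replicate block. Retro-orbital against kidney tumors gave 5, 8 with DESeq2, 3 with no filter on low counts, 3 with the replicate block and 0 to 7 without an animal. Brain against kidney tumors gave 1, 5 with DESeq2, 2 with a mean of at least 1 CPM, 3 with every library, 3 with limma-voom, 6 with the joint fit, 0 with the replicate block, 2 with sex as a covariate and 0 to 1 without an animal. The fetal comparison gave 0, 1 with DESeq2 and 0 to 1 without a fetus. In that comparison fits with every library, limma-voom and the joint fit were not run, since each fetus gave 1 library and only 2 groups exist.

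The sign changes were all in members that were not called. In non-transformed against control kidneys, Vcam1 went to -0.06 without control mouse 1, -0.15 without mouse 4 and -0.11 without the control library lowest in Havcr1, with a range of -0.15 to 0.12 over the fits without an animal, and Clu to 0.087 without control mouse 2 and 0.044 without mouse 3. In kidney tumors against controls, C7 went to -1.35 with limma-voom, -0.38 with sex and -0.33 in females. In kidney tumors against non-transformed kidneys, Havcr1 went to -0.54 with limma-voom, -0.46 with sex and -0.71 without mouse 1, with a highest value of 1.26 without mouse 3. Serpina3n in retro-orbital tumors went to -0.022 without mouse 2, with a highest value of 0.91. Clu in brain tumors went to -0.94 with limma-voom, -0.61 with the replicate block, -0.19 without mouse 2 and -0.17 without mouse 4, with a highest value of 0.93. In the fetuses, Lcn2 went to 0.59 without control fetus 1, with a lowest value of -1.65 over the fits without a single fetus and -2.27 over all fits, and Clu to -0.82 without dysmorphic fetus 2, with a highest value of 1.09. Without control fetuses 2 and 3 and dysmorphic fetus 5, a fit whose lone control is assumed to vary like the dysmorphic group, Clu was at -0.17 and Spp1 at -0.27. The causes of these changes were not tested. Apart from the calls named in the report, the replicate block changed no other call of a member. The number of animals, 3 to 6 a group, limits the precision.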
